A study of Mus musculus with 16 samples.

Results

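The mitosis and cytokinesis genes described here are 42 genes whose products drive a cell into mitosis, build the spindle, watch over chromosome attachment, compact the chromosomes and split the cell at the end. They are a list of gene symbols, put together with earlier results of these data known, from the 23410 symbols of the count table. All 42 symbols were in the table, and all 42 passed the filter on low counts that left 10080 genes to test. By role they were 6 cyclins and mitotic entry kinases, 7 spindle checkpoint and anaphase genes, 5 kinetochore and centromere genes, 4 genes of the chromosomal passenger complex, 7 spindle genes, 7 genes of the central spindle and cytokinesis, and 6 genes of condensin and chromosome structure.

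The RNA came from G1E-ER4, a mouse erythroid progenitor line. G1E cells carry a null allele of Gata1, the master transcription factor gene of red cell formation, and G1E-ER4 is a clone of them that makes a GATA1 protein joined to the hormone-binding domain of the estrogen receptor. Beta-estradiol sends that fusion protein to the nucleus, where it can act on its target genes. The 8 groups differed only in beta-estradiol, at 0 nM (the untreated control), 12.5, 25, 50, 75, 100, 150 or 200 nM, with 2 replicate libraries at each dose and 16 libraries in all. All groups shared the clone, the fusion gene and a medium that held erythropoietin, stem cell factor and serum. All libraries thus come from a single clone, and no cells without the fusion protein and no hormone-treated parental cells were analysed here. The exposure had a length not given in the sources used here. No label says that the 2 libraries of a dose came from separate cultures, so the p-values measure the spread between these libraries, which may be technical.

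As background, mitotic genes are transcribed in a wave. In resting cells and in the first gap phase many of them are held down by the DREAM complex, which binds a short element near the start site called the CHR (cell cycle genes homology region). In the second gap phase the factors B-Myb and FOXM1 act at the same promoters, often with NF-Y bound at CCAAT boxes, and the transcripts reach their highest level as the cell divides. Erythroid precursors divide several times while they mature and then leave the cell cycle, and GATA1 acts in that transition.

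The libraries held 9393156 to 15802510 counts each, of which 97269 to 155464 fell in the 42 members. The ribosomal RNA transcript Rn45s took 8.94% to 15.3% of the counts and the globin genes took 0.151% to 5.88%, both with their highest shares at 200 nM. The line's identity was checked on marker lists. All 7 erythroid markers in the table were tested, and their summed level was 1568 to 1579 CPM at 0 nM and 18392 to 18498 CPM at 200 nM, where CPM is the usual unit of counts relative to a library's total in the tested genes, after TMM scaling (a correction for library composition). Of the 9 megakaryocyte and platelet markers, Gp1bb and Vwf were at 0 in every library and the summed level was 18.0 to 18.8 CPM at 0 nM and 440 to 454 CPM at 200 nM. The 8 mast cell and basophil markers, with Mcpt8 at 0, summed to 123 to 135 CPM at 0 nM and 16.1 to 19.8 CPM at 200 nM. Gata2, which blood progenitors also express, carried most of the mast cell and basophil sum, with means of 127 CPM at 0 nM and 16.4 CPM at 200 nM. Itgb3 carried most of the megakaryocyte and platelet sum at 200 nM, with a mean of 404 CPM. At 0 nM Itgb3 had a mean of 7.77 CPM, beside 7.71 CPM for Gp1ba. The granulocyte and macrophage list reached at most 2.58 CPM (Mpo, Emr1, Lyz2 and S100a8 at 0) and the fibroblast and endothelial list 0.808 CPM (Col1a2, Col3a1, Dcn and Cdh5 at 0). The part of these markers in the results on the mitosis genes was not tested. In RNA from whole cultures, a larger share of cells in mitosis and more mitotic RNA in each such cell cannot be told apart.

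Most of the mitosis genes were not called up to 25 nM and were called higher at 50 to 100 nM, while Bub1b was lower from 50 nM on. At the top doses some climbed further and others came down to or below the level of untreated cells. No member was called at 12.5 nM against 0 nM (adjusted p under 0.05 by edgeR's quasi-likelihood test with Benjamini-Hochberg adjustment over all 10080 genes, which called 0.278% of genes higher and 0.228% lower). At 25 nM only Aurka, the kinase of the spindle poles, was called, at 0.18 ± 0.04 (edgeR adjusted p = 0.00558) on the log2 scale (all genes: 3.0% higher, 1.02% lower), whereas with library size alone no member was higher and 1 was lower. At 50 nM 33 members were higher and only Bub1b was lower, against 18.8% and 14.7% of all genes tested. At 75 nM 37 were higher and 2 lower, Bub1b and Ect2 (all genes: 29.0% and 26.9%). At 100 nM 35 were higher and the same 2 genes lower (all genes: 34.1% and 32.5%). At 150 nM there were 33 higher and 5 lower members (all genes: 37.7% and 36.6%). At 200 nM there were 26 higher and 9 lower members (all genes: 40.5% and 39.5%). The median log2 fold change of the members was 0.22 at 50 nM, 0.31 at 75, 0.38 at 100, 0.34 at 150 and 0.26 at 200 nM, while the median of all genes tested was 0.01, 0.00, 0.01, 0.01 and 0.02.

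These counts depended on how the libraries were scaled. TMM scaling holds the middle of the genes level, whereas scaling by library size alone moved the median of all genes to -0.11 at 75 nM and -0.36 at 200 nM. With library size alone, 29 members were higher and 4 lower at 75 nM (all genes: 21.3% and 37.8%). At 200 nM this scaling gave 14 higher and 24 lower (all genes: 28.0% and 53.5%). The members' median was then 0.19 at 75 nM and -0.12 at 200 nM, above the median of all genes at both doses. Under all 5 scalings tried, 29 members were called higher at 75 nM and 2 lower. At 200 nM the same held for 14 higher and 9 lower members. Calls shared by all 5 scalings were counted for the members only, so no share of all genes is set beside them. The 14 were Birc5, Ccna2, Ccnb1, Ccnb2, Cenpa, Cenpe, Cenpf, Hmmr, Mki67, Ndc80, Nusap1, Smc4, Tpx2 and Ube2c. The 9 were Aurkb, Bub1, Bub1b, Cdk1, Ect2, Kif20b, Kif23, Mad2l1 and Ttk. The plot of shares called by dose shows both scalings side by side.

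**Figure D1:**
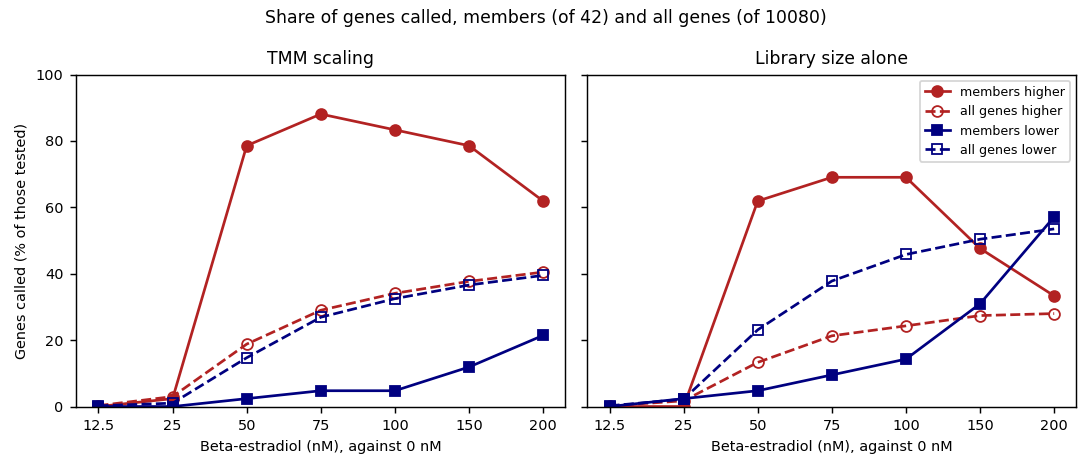
Share of the 42 members (solid lines) and of all 10080 genes tested (dashed lines) called higher (red circles) or lower (blue squares) than at 0 nM, in % of genes, at each dose of beta-estradiol in nM, with TMM scaling on the left and library size alone on the right. With TMM the members called higher reach 37 of 42 at 75 nM and 26 of 42 at 200 nM, and with library size alone they reach 29 and 14.

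Between neighbouring doses, the move began at the step from 25 to 50 nM. From 12.5 to 25 nM no member was called (all genes: 0.893% higher, 0.198% lower). From 25 to 50 nM 31 members rose and only Bub1b fell (all genes: 14.1% and 12.1%). From 50 to 75 nM 20 rose and Bub1b fell (16.6% and 15.8%), and from 75 to 100 nM 18 rose and Bub1b fell (14.7% and 12.8%). From 100 to 150 nM 12 rose and 9 fell (20.6% and 20.2%). From 150 to 200 nM only Ccna2, Ube2c, Tpx2 and Nusap1 rose, and 21 members fell (19.4% and 19.9%). The first dose at which a member was called against 0 nM was 50 nM for 33 members, 25 nM for 1, 75 nM for 5 (Anln, Aurkb, Ect2, Kif2c and Ttk), 150 nM for 2 (Kif20b and Mad2l1) and 200 nM for 1 (Kif23). An F test over all doses called all 42 members, as it did 86.3% of all genes tested. A straight dose trend was rising for 28 members, falling for 6 and not called for 8 (all genes: 39.7% rising, 37.8% falling).

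**Figure D2:**
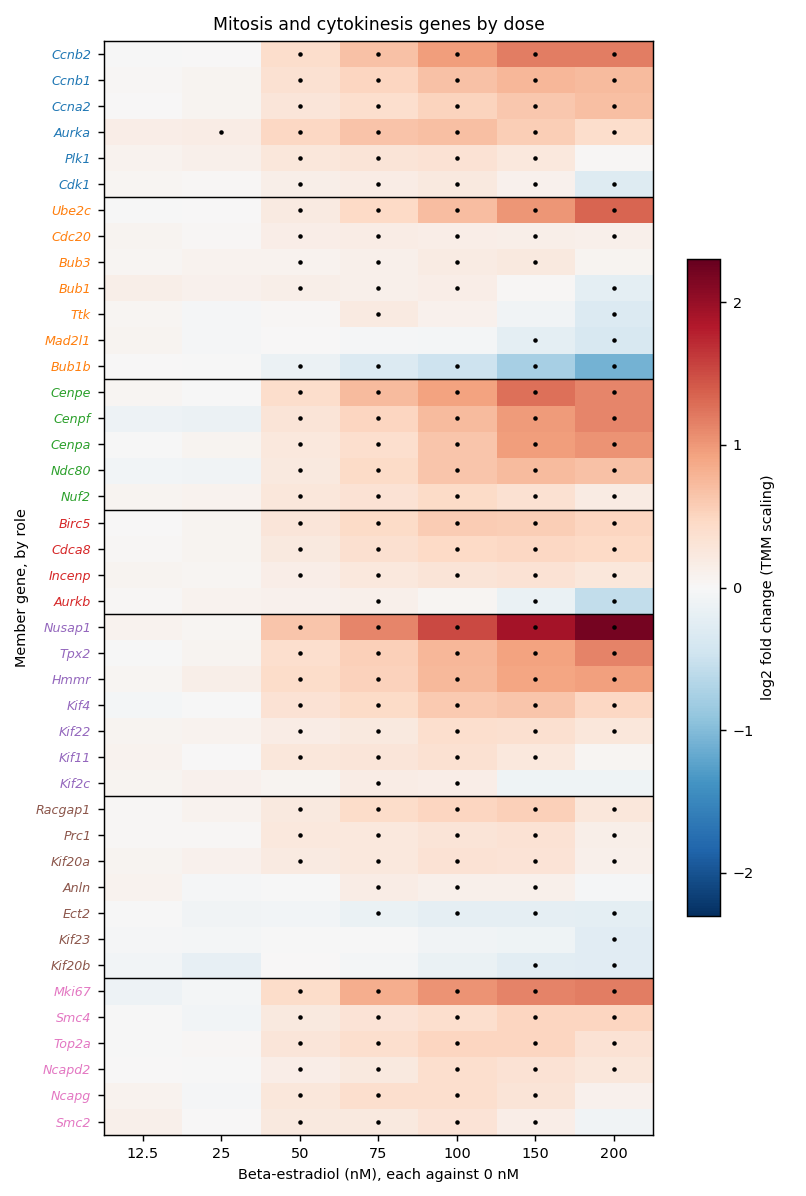
Log2 fold change against 0 nM (colour, red higher and blue lower, TMM scaling) of each of the 42 members (vertical axis, grouped by role) at each dose of beta-estradiol in nM (horizontal axis), with a dot where the adjusted p is under 0.05. The values run from -1.09 (Bub1b) to 2.21 (Nusap1), both at 200 nM, and the columns at 12.5 and 25 nM hold 1 dot, for Aurka.

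The promoters of the members share short sequences that the list of names did not use. RefSeq promoters (build GRCm38.p6, 250 bases before the start site to 50 after it) were matched by symbol for 36 of the 42 members, in 39 promoters. They were searched on both strands for CCAAT, the core of the NF-Y box, for TTTGAA and TTCGAA, which are the usual letters of the CHR, for TTTCGCGC and TTTCCCGC, forms of the E2F site, and for AGATAA and TGATAA, forms of the GATA site. TTCGAA reads the same on both strands. TTTGAA was present in 32 of 39 members' promoters (82.1%), against 17.9% of all 32851 promoters and 11.9% of the 9547 promoters of genes tested. CCAAT was present in 31 (79.5%), against 37.4% and 39.1%. Either form of the CHR together with CCAAT was present in 29 (74.4%), against 7.52% and 5.88%. Ect2, Prc1 and Bub3 each had overlapping promoters, which count the same TTTGAA more than once. Counted by gene, TTTGAA was in 29 of 36 members, CCAAT in 28, and either form of the CHR together with CCAAT in 26. TTCGAA was in 3 (7.69%, against 1.56% and 2.22%), TTTCGCGC in 1 (2.56%, against 0.323% and 0.765%) and TTTCCCGC in 1 (2.56%, against 1.07% and 2.18%). AGATAA was in 2 (5.13%, against 11.2% and 6.48%) and TGATAA in 1 (2.56%, against 9.05% and 4.34%). A match is a description of letters and not a bound site, and a missing match says only that these letters are not in this window.

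The CHR letters mostly sat near the RefSeq start site, again counted by promoter. Of all 32851 promoters, 34.3% had a start within 1 base of a GENCODE M21 transcript start. The positions therefore depend on the start sites used. Of the 33 member promoters with TTTGAA or TTCGAA, 29 (87.9%) had the match nearest the start within 50 bases of it, against 27.6% over all promoters with a match and 26.4% over those of genes tested. Among 102 promoters of other mitosis genes 43 (42.2%) had a match, 32 of them (74.4%) within 50 bases of the start. Among 30 promoters of DNA replication genes 5 (16.7%) had a match, 1 of them (20%) within 50 bases. CCAAT was in 53.9% of the promoters of other mitosis genes and in 60% of those of DNA replication genes. Either form of the CHR together with CCAAT was in 27.5% and 13.3%. TTTGAA or TTCGAA was in the promoter of 16 of 21 matched members that were higher at 200 nM and of 7 of 8 that were lower, a difference that was not tested. The stretches around the nearest match are shown for 8 members, picked after their sequences were seen, so that the shared letters can be compared. They are cyclin and entry kinase, checkpoint and anaphase, kinetochore and passenger complex genes, and the other roles are not shown. Each is 20 bases, written on the strand that reads TTTGAA, which is in capitals.
Cdk1: ccgcggcgagTTTGAAactg
Ccnb2: cggcgcggtaTTTGAAtcgc
Plk1: cagcgccgcgTTTGAAttcg
Cdc20: acagttgggtTTTGAAggag
Ube2c: gccgcccgcgTTTGAAttgc
Cenpf: cggcgggcagTTTGAAtcgc
Cdca8: gcccgttgagTTTGAAttgg
Bub1b: agacgttaaaTTTGAAactt
In build GRCm38.p6 they lie at chr10:69352918-69352937 (Cdk1), chr9:70421541-70421560 (Ccnb2), chr7:122159455-122159474 (Plk1), chr4:118437352-118437371 (Cdc20), chr2:164769896-164769915 (Ube2c), chr1:189688075-189688094 (Cenpf), chr4:124936895-124936914 (Cdca8) and chr2:118598241-118598260 (Bub1b). Cdk1, Ccnb2, Cdc20, Cenpf and Cdca8 are on the minus strand of the genome and Plk1, Ube2c and Bub1b on the plus strand, and the Ube2c match is on the strand opposite to its gene. At 200 nM Ube2c had the largest rise after Nusap1 and Bub1b the largest fall. Ube2c and Bub1b carry the letters, as every member shown does by selection, while the searched promoter of Nusap1 holds neither CHR form and no CCAAT.

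Longer promoter stretches are shown for 4 members: Top2a, which had the most matches, Bub1b, which fell most at 200 nM, and, chosen after their values were seen, Nusap1, which rose most, and Ccnb2, which had the highest level per length. Each is the 250 bases before the start site on the gene's own strand, with CCAAT and both CHR forms, on either strand, in capitals.
Top2a: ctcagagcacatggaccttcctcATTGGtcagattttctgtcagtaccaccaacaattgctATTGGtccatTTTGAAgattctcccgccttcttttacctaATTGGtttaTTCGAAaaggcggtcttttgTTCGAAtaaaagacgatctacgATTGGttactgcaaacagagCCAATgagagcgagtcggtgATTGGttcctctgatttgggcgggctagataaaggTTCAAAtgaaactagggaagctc
Bub1b: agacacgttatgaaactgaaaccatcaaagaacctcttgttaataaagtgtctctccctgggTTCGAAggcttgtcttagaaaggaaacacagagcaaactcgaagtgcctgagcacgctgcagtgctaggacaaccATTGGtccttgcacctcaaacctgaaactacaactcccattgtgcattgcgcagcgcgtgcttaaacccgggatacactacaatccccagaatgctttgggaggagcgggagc
Nusap1: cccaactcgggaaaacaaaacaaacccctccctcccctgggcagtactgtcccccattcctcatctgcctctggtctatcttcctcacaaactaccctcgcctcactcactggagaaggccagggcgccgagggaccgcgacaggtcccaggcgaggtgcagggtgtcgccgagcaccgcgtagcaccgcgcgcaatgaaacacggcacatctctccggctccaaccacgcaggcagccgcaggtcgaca
Ccnb2: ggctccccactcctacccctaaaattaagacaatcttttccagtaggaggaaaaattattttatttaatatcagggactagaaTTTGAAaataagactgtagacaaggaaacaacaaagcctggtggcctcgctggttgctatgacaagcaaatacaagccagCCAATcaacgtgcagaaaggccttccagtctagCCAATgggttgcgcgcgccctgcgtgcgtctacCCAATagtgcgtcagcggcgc
They lie at chr11:99024190-99024439 (minus strand), chr2:118597961-118598210 (plus strand), chr2:119618048-119618297 (plus strand) and chr9:70421555-70421804 (minus strand). The stretches hold 10 matches in Top2a, 2 in Bub1b, 0 in Nusap1 and 4 in Ccnb2. The TTTGAA of Bub1b shown above begins at base 41 after its start site and that of Ccnb2 at base 5, both outside these stretches. The TTTGAA in the Ccnb2 stretch, at -167 from the start, is another match.

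The cyclins and entry kinases, which start mitosis, were higher at 75 nM in 6 of 6 genes and at 200 nM in 4, with Cdk1 lower and Plk1 not called (with library size alone, 5 higher at 75 nM, then the 3 cyclins higher and 2 kinase genes lower at 200 nM). Cyclins A2, B1 and B2 kept or added to their gain up to 200 nM, while the kinase genes Cdk1, Plk1 and Aurka peaked at 100 nM and came down. Cyclin B2 (Ccnb2, chr9:70407692-70421547, minus strand) had the largest rise of the 6. Its level in the 2 libraries of each dose was 206 and 211 CPM at 0 nM, 206 and 208 at 12.5, 209.9 and 209 at 25, 270.0 and 279.8 at 50, 343 and 323 at 75, 412 and 399 at 100, 471 and 467 at 150, then 461 and 478 at 200 nM. Every library from 50 nM up lay above every library up to 25 nM, and the gain had levelled off by 150 nM. The log2 fold change was 0.67 ± 0.04 (edgeR adjusted p = 4.64e-21) at 75 nM and 1.17 ± 0.04 (edgeR adjusted p = 1.34e-31) at 200 nM.

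Cdk1 (chr10:69335146-69352938, minus strand), the kinase that the cyclins switch on, measured 251 and 245 CPM at 0 nM, 254 and 258 at 12.5, 252 and 252 at 25, 276 and 267 at 50, 279 and 282 at 75, 292 and 292 at 100, 266 and 264 at 150, then 209 and 195 at 200 nM. Its libraries at 50 to 150 nM all lay above those at 0 nM, and both libraries at 200 nM lay below every other library. Its change was 0.23 ± 0.04 (edgeR adjusted p = 3.56e-07) on the log2 scale at 100 nM and -0.30 ± 0.04 (edgeR adjusted p = 2.15e-09) at 200 nM. Ccnb1, cyclin B1 (chr13:100778650-100786570, minus strand), reached a plateau from 150 nM. Its libraries gave 379 and 378 CPM at 0 nM, 391 and 384 at 12.5, 392 and 398 at 25, 461 and 503 at 50, 540.2 and 521 at 75, 601 and 611 at 100, 630.0 and 660.2 at 150, then 632 and 628 at 200 nM. All libraries from 50 nM up lay above those up to 25 nM, and at 200 nM the log2 fold change was 0.73 ± 0.03 (edgeR adjusted p = 2.42e-24). Processed copies of Ccnb1 lie elsewhere in the mouse genome and how the counter treats reads that match several places is not known here, so its count is uncertain by the reads they share.

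Ccna2, cyclin A2 (chr3:36564865-36572150, minus strand), was the most abundant of the 6 by CPM. It stood at 480.3 and 488 CPM at 0 nM, 490.0 and 486 at 12.5, 498 and 510.2 at 25, 578 and 602 at 50, 629.8 and 629 at 75, 694 and 691 at 100, 734 and 749 at 150, then 781 and 782 at 200 nM. From 50 nM up, both libraries of each dose lay above both of the dose before, and the log2 fold change at 200 nM was 0.69 ± 0.03 (edgeR adjusted p = 1.25e-25). Plk1 and Aurka, the Polo and Aurora A kinases of spindle assembly, peaked in the middle. Plk1 went from 142 and 148 CPM at 0 nM to 183 and 182 CPM at 100 nM and was not called at 200 nM, with a log2 fold change of 0.02 ± 0.05 (edgeR adjusted p = 0.66) that was -0.36 with library size alone. Aurka reached 0.70 ± 0.04 (edgeR adjusted p = 3.04e-20) at 100 nM and 0.40 ± 0.04 (edgeR adjusted p = 7.38e-12) at 200 nM, and with library size alone the latter was 0.02 and not called.

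**Figure D3:**
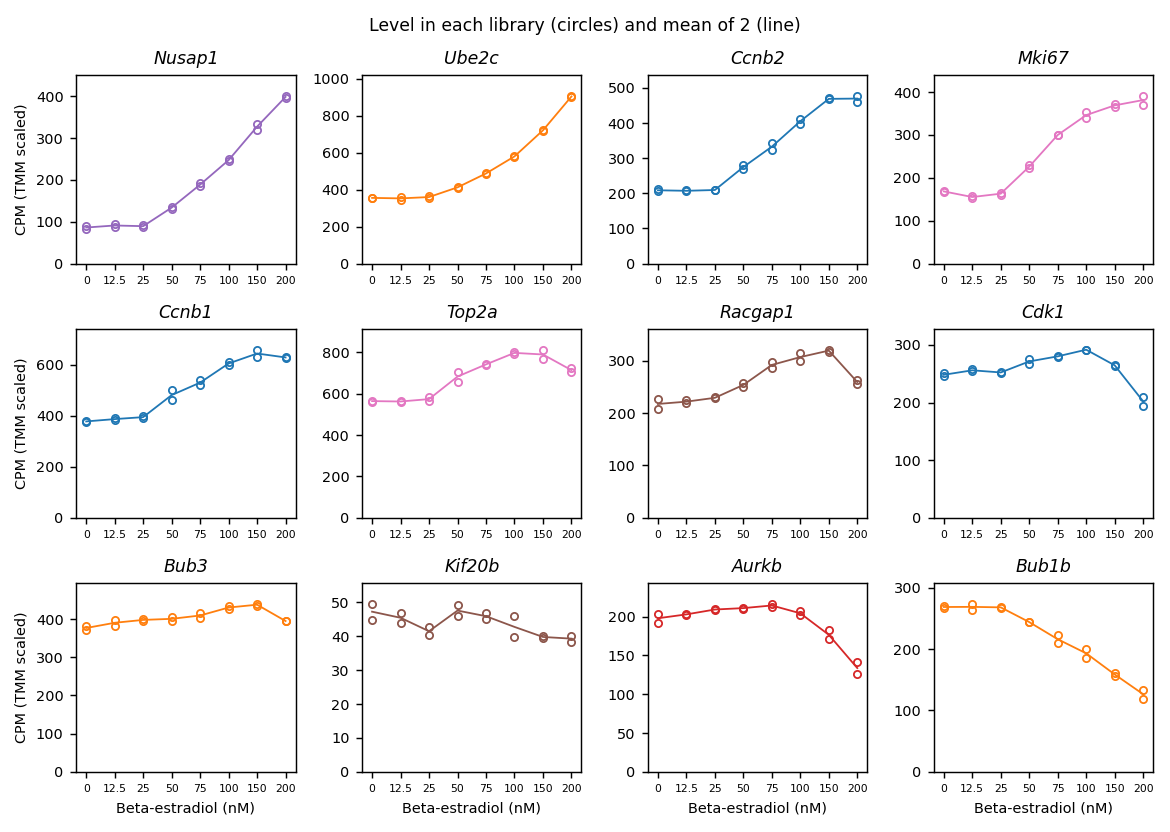
Level in CPM (TMM scaled, vertical axes starting at 0) of 12 members in each of the 16 libraries (circles) against the dose of beta-estradiol in nM, with a line through the mean of the 2 libraries. Nusap1, Ube2c, Ccnb2 and Mki67 climb to the high doses, Cdk1 and Racgap1 rise and come down, and Aurkb and Bub1b end below their level at 0 nM.

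The spindle checkpoint and anaphase genes went different ways. At 75 nM 5 of the 7 were higher and Bub1b was lower, and at 200 nM Ube2c and Cdc20 were higher while Bub1, Bub1b, Mad2l1 and Ttk were lower. When library size alone set the scale, only Ube2c was higher at 75 nM, with Bub1, Bub3, Ttk and Cdc20 not called there, and at 200 nM 1 was higher and 6 lower. Of the 5 checkpoint genes, which hold the cell back until all chromosomes are attached, Bub1, Bub1b, Mad2l1 and Ttk were lower at the top dose under all 5 scalings and Bub3 was not called with TMM. Ube2c, the ubiquitin-conjugating enzyme that works with the anaphase-promoting complex to end mitosis, was higher under all 5. Ube2c (chr2:164769898-164778822, plus strand) stood at 357 and 354 CPM at 0 nM, 346 and 359 at 12.5, 356 and 363 at 25, 415 and 409.6 at 50, 489 and 485 at 75, 579 and 580.5 at 100, 717 and 724 at 150, then 909 and 898 at 200 nM. Its 2 libraries at each dose from 50 nM up lay above all libraries of the doses below. The log2 fold change was 0.46 ± 0.03 (edgeR adjusted p = 2.07e-17) at 75 nM and 1.35 ± 0.03 (edgeR adjusted p = 4.41e-37) at 200 nM.

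Bub1b (chr2:118598211-118641591, plus strand), which encodes the checkpoint protein BubR1, was the one member called lower at each of the 5 steps from 25 to 200 nM. Its libraries measured 271 and 266 CPM at 0 nM, 274 and 264 at 12.5, 269 and 267 at 25, 244 and 244 at 50, 209 and 223 at 75, 186 and 200.2 at 100, 156 and 161 at 150, then 134 and 119 at 200 nM. No library from 50 nM up reached the lowest library of the lower doses. At 200 nM the log2 fold change was -1.09 ± 0.05 (edgeR adjusted p = 2.79e-26). Bub3 (chr7:131560222-131571895, plus strand), its partner at the kinetochore, was the most abundant gene of this role by CPM. It gave 382 and 371 CPM at 0 nM, 382 and 399 at 12.5, 401 and 395 at 25, 406 and 395 at 50, 415 and 404 at 75, 426 and 435 at 100, 440.2 and 436 at 150, then 394 and 396 at 200 nM. Its libraries at 200 nM lay above those at 0 nM and below those at 100 and 150 nM, and the log2 fold change of 0.07 ± 0.03 (edgeR adjusted p = 0.059) at 200 nM was not called and turned to -0.31 with library size alone. Mad2l1, Ttk and Bub1 changed by -0.37, -0.32 and -0.23 at 200 nM, all called. Cdc20, the activator of the anaphase-promoting complex, changed by 0.11 ± 0.04 (edgeR adjusted p = 0.00392) at 200 nM, which turned to -0.27 with library size alone and was not called without the second library of 0 nM (0.09, adjusted p = 0.068) or the first of 200 nM (0.08, adjusted p = 0.117).

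The kinetochore and centromere genes, which tie chromosomes to spindle fibres, were higher in 5 of 5 genes at 75 nM and in 5 of 5 at 200 nM (with library size alone, 5 higher at 75 nM, then 4 higher and Nuf2 lower at 200 nM). With TMM scaling Cenpe, Cenpf and Cenpa passed a 2-fold rise at 200 nM. Cenpe (chr3:135212537-135273611, plus strand), a kinesin motor of the kinetochore, had 42.3 and 39.9 CPM at 0 nM, 41.1 and 43.2 at 12.5, 40.7 and 40.9 at 25, 59.3 and 50.2 at 50, 64.8 and 71.7 at 75, 76.9 and 79.8 at 100, 101 and 97.5 at 150, then 90.1 and 88.3 at 200 nM. Every library from 50 nM up was above every lower dose, and the 2 at 150 nM were the highest. Its log2 fold change at 200 nM was 1.12 ± 0.07 (edgeR adjusted p = 1.7e-19). Cenpa (chr5:30666777-30674830, plus strand), the histone H3 variant that marks centromeres, measured 165 and 151 CPM at 0 nM, 152 and 161 at 12.5, 162 and 167 at 25, 190.2 and 182 at 50, 205 and 207 at 75, 252 and 243 at 100, 308 and 303 at 150, then 329 and 319.9 at 200 nM. All libraries from 50 nM up again lay above the lower doses, with the highest pair at 200 nM and a log2 fold change there of 1.04 ± 0.04 (edgeR adjusted p = 7.48e-27).

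Nuf2 (chr1:169497934-169531464, minus strand), a subunit of the NDC80 complex that grips microtubules, had the smallest change of the 5. It gave 71.0 and 72.2 CPM at 0 nM, 72.0 and 78.1 at 12.5, 75.6 and 75.2 at 25, 86.0 and 85.5 at 50, 90.5 and 90.4 at 75, 97.8 and 96.7 at 100, 91.4 and 90.2 at 150, then 84.2 and 79.1 at 200 nM. Its libraries at 200 nM lay above those at 0 nM but below those at 50 to 150 nM, and the log2 fold change of 0.19 ± 0.06 (edgeR adjusted p = 0.0029) turned to -0.19 with library size alone and was not called without the first library of 200 nM (0.14, adjusted p = 0.066). Ndc80, its direct partner, changed by 0.67 ± 0.06 (edgeR adjusted p = 1.7e-13), and Cenpf by 1.11 ± 0.07 (edgeR adjusted p = 1.5e-20).

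In the chromosomal passenger complex, which corrects faulty attachments and then helps to cut the cell, 4 of 4 genes were higher at 75 nM. At 200 nM the 3 non-kinase subunits Birc5 (survivin), Cdca8 (borealin) and Incenp were higher and the kinase gene Aurkb was lower. Scaled by library size alone, 3 were higher at 75 nM, and at 200 nM 1 was higher and 2 lower. Birc5 (chr11:117849251-117855743, plus strand) stood at 183 and 181 CPM at 0 nM, 184 and 183 at 12.5, 187 and 191 at 25, 231 and 213 at 50, 253 and 240.5 at 75, 269 and 274 at 100, 275 and 264 at 150, then 257 and 253 at 200 nM. Its libraries from 50 nM up lay above those of the lower doses, and the log2 fold change at 200 nM was 0.49 ± 0.04 (edgeR adjusted p = 4.9e-15). Aurkb (chr11:69045647-69051664, plus strand), Aurora B kinase, measured 203 and 192 CPM at 0 nM, 202 and 204 at 12.5, 209 and 209.5 at 25, 210.2 and 212 at 50, 212 and 216 at 75, 202 and 207 at 100, 182 and 171 at 150, then 142 and 126 at 200 nM. The libraries up to 100 nM lay within a narrow band, and those at 150 and 200 nM lay below all of them. The fall at 200 nM was -0.57 ± 0.05 (edgeR adjusted p = 1.83e-15). Its call at 75 nM, a log2 fold change of 0.12, turned to -0.0047 with library size alone and was lost without the second library of 0 nM (0.07, adjusted p = 0.286) or of 75 nM (0.09, adjusted p = 0.171).

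Cdca8 (chr4:124918465-124939311, minus strand) was the most abundant of the 4 by CPM. Its values were 290.0 and 282 CPM at 0 nM, 283 and 298 at 12.5, 292 and 308 at 25, 337 and 335 at 50, 368 and 366 at 75, 401 and 388 at 100, 409.6 and 388 at 150, then 393 and 391 at 200 nM. The libraries from 50 nM up lay above all lower doses and changed little from 100 nM on, with a log2 fold change of 0.45 ± 0.04 (edgeR adjusted p = 1.09e-15) at 200 nM that was not called with library size alone (0.07). Incenp, the scaffold of the complex, changed by 0.27 ± 0.04 (edgeR adjusted p = 3.85e-08) at 200 nM and by -0.11 with library size alone.

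The spindle genes held the largest rise of all 42 members. At 75 nM 7 of 7 were higher, and at 200 nM 5 were higher and Kif11 and Kif2c were not called. Under library size alone 6 were higher at 75 nM, and at 200 nM 3 were higher and 3 lower. Nusap1 (chr2:119618298-119651244, plus strand), which bundles microtubules around chromosomes, had 90.3 and 82.3 CPM at 0 nM, 94.9 and 87.4 at 12.5, 91.3 and 87.7 at 25, 137 and 131 at 50, 185 and 193 at 75, 244 and 251 at 100, 320.4 and 335 at 150, then 395 and 402 at 200 nM. Each dose from 50 nM up had both libraries above those of the dose before. It changed by 0.63 ± 0.05 (edgeR adjusted p = 2.6e-15) on the log2 scale at 50 nM, 1.13 ± 0.05 (edgeR adjusted p = 1.76e-25) at 75 nM and 2.21 ± 0.05 (edgeR adjusted p = 7.4e-39) at 200 nM. Nusap1 was the one member past a 2-fold rise at 75 nM.

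Tpx2 (chr2:152847964-152895321, plus strand), which starts microtubules near chromosomes and activates Aurora A, was the most abundant spindle gene by CPM. Its libraries gave 211 and 218 CPM at 0 nM, 213 and 212 at 12.5, 220.3 and 229 at 25, 288 and 271 at 50, 315 and 309 at 75, 366 and 362 at 100, 427 and 388 at 150, then 466 and 474 at 200 nM. From 50 nM up each pair lay above the pair before, and the log2 fold change at 200 nM was 1.13 ± 0.04 (edgeR adjusted p = 9.89e-30). Kif2c (chr4:117159639-117182639, minus strand), a kinesin that takes microtubules apart, had the lowest fold change of the 7. It measured 71.0 and 70.2 CPM at 0 nM, 72.3 and 74.5 at 12.5, 75.4 and 75.4 at 25, 79.1 and 69.1 at 50, 79.8 and 78.2 at 75, 75.9 and 80.1 at 100, 65.8 and 66.5 at 150, then 70.5 and 62.2 at 200 nM. Its libraries at 75 and 100 nM lay above those at 0 nM, while at 200 nM 1 library lay within the range of 0 nM and 1 below it, with a log2 fold change of -0.09 ± 0.07 (edgeR adjusted p = 0.2) that was called without the first library of 200 nM (-0.18, adjusted p = 0.0343). The call at 75 nM, 0.16, was lost without any one of the 4 libraries compared (0.15 to 0.17 on the log2 scale, adjusted p = 0.0755 to 0.124). Hmmr, Kif4 and Kif22 changed by 0.94, 0.48 and 0.27 at 200 nM, all called, but with library size alone Kif4 was not called (0.10) and Kif22, a chromosome-arm kinesin, turned to -0.11. Kif11, the motor that pushes spindle poles apart, reached 0.35 at 100 nM and stood at 0.04 ± 0.04 (edgeR adjusted p = 0.361) at 200 nM, or -0.34 with library size alone.

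The central spindle and cytokinesis genes, which pinch the cell, went different ways. At 75 nM 4 of 7 were higher (Kif20a, Racgap1, Anln and Prc1) and Ect2 was lower. At 200 nM Kif20a, Racgap1 and Prc1 were higher and Kif20b, Kif23 and Ect2 were lower. These counts at 200 nM were near the shares of all genes, 40.5% higher and 39.5% lower. The counts with library size alone were 3 higher and 2 lower at 75 nM, and all 7 were lower at 200 nM. Racgap1 (chr15:99620496-99651656, minus strand), a subunit of the centralspindlin complex, stood at 209 and 227 CPM at 0 nM, 219.6 and 225 at 12.5, 230.3 and 229 at 25, 258 and 250.4 at 50, 287 and 298 at 75, 315 and 300.2 at 100, 318 and 322 at 150, then 263 and 256 at 200 nM. Its libraries at 75 to 150 nM were the highest, and those at 200 nM came back to the level of 50 nM, above 0 nM. The log2 fold change was 0.55 ± 0.04 (edgeR adjusted p = 2.75e-17) at 150 nM and 0.25 ± 0.04 (edgeR adjusted p = 1.9e-07) at 200 nM, and the latter turned to -0.13 with library size alone. Kif23, the motor partner of Racgap1 in the same complex, was not called up to 150 nM and changed by -0.26 ± 0.05 (edgeR adjusted p = 7.76e-06) at 200 nM.

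Kif20b (chr19:34922361-34975745, plus strand), a kinesin of the midbody, had 49.6 and 45.0 CPM at 0 nM, 44.0 and 47.0 at 12.5, 42.7 and 40.3 at 25, 49.1 and 46.1 at 50, 45.0 and 46.9 at 75, 45.9 and 39.7 at 100, 39.5 and 40.2 at 150, then 40.2 and 38.5 at 200 nM. The libraries overlapped between most doses, and both at 200 nM lay below both at 0 nM, with a log2 fold change of -0.27 ± 0.08 (edgeR adjusted p = 0.00231). Prc1 (chr7:80294450-80316259, plus strand), which crosslinks the microtubules of the central spindle, was the most abundant of the 7 by CPM. It gave 243 and 257 CPM at 0 nM, 255 and 256 at 12.5, 258 and 252 at 25, 298 and 289.6 at 50, 297 and 292 at 75, 303 and 313 at 100, 315 and 315 at 150, then 273 and 277 at 200 nM. Its libraries at 50 to 150 nM lay above those at 200 nM, which lay above those at 0 nM. Its log2 fold change at 200 nM of 0.14 ± 0.04 (edgeR adjusted p = 0.000756) turned to -0.24 with library size alone and was not called without the first library of 0 nM (0.08, adjusted p = 0.102). Kif20a, the motor that carries the passenger complex to the midzone, changed by 0.12 ± 0.04 (edgeR adjusted p = 0.00801) at 200 nM, by -0.26 with library size alone, and was not called without the second library of 0 nM (0.09, adjusted p = 0.109) or of 200 nM (0.08, adjusted p = 0.125). Ect2, the exchange factor that turns on RhoA at the furrow, changed by -0.15 ± 0.06 (edgeR adjusted p = 0.0197) at 75 nM, a call lost without the second library of 0 nM (-0.13, adjusted p = 0.121) or either library of 75 nM (-0.15, adjusted p = 0.07 and -0.16, adjusted p = 0.0605), and by -0.23 ± 0.06 (edgeR adjusted p = 0.000407) at 200 nM. Anln, the actin-binding protein anillin, was at 0.17 at 75 nM, a call lost without the first library of 0 nM (0.16, adjusted p = 0.0511) or the second of 75 nM (0.15, adjusted p = 0.0631), and at -0.02 ± 0.06 (edgeR adjusted p = 0.694) at 200 nM.

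The genes of condensin and chromosome structure were higher in 6 of 6 at 75 nM and in 4 of 6 at 200 nM, with Smc2 and Ncapg not called (with library size alone, 6 higher at 75 nM, then Mki67 and Smc4 higher and 3 members lower at 200 nM). Mki67 (chr7:135689784-135716361, minus strand), which encodes the proliferation antigen Ki-67 on the surface of mitotic chromosomes, had the largest rise. Its libraries measured 167 and 169.9 CPM at 0 nM, 158 and 152 at 12.5, 166 and 160.4 at 25, 230.4 and 222 at 50, 301 and 299 at 75, 353 and 339.8 at 100, 372 and 366 at 150, then 392 and 371 at 200 nM. All libraries from 50 nM up lay above those up to 25 nM, and the level changed little past 150 nM. The log2 fold change was 0.83 ± 0.04 (edgeR adjusted p = 1.08e-23) at 75 nM and 1.18 ± 0.04 (edgeR adjusted p = 1.12e-30) at 200 nM. Top2a (chr11:98992943-99024189, minus strand), the topoisomerase that untangles sister chromosomes, had the highest mean CPM of all 42 members. It stood at 567 and 562 CPM at 0 nM, 563 and 561 at 12.5, 583 and 564 at 25, 707 and 659 at 50, 739.8 and 744 at 75, 802 and 793 at 100, 813 and 766 at 150, then 725 and 703 at 200 nM. Its libraries at 100 and 150 nM were the highest, and those at 200 nM remained above 0 nM, with a log2 fold change of 0.34 ± 0.03 (edgeR adjusted p = 4.35e-13) that turned to -0.04 with library size alone.

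Smc2 (chr4:52439243-52488260, plus strand), the core ATPase of condensin, gave 262 and 261 CPM at 0 nM, 287 and 278 at 12.5, 266 and 263 at 25, 311 and 298 at 50, 317 and 294 at 75, 318 and 331 at 100, 295 and 287 at 150, then 244 and 249.6 at 200 nM. Its libraries at 50 to 150 nM lay above both at 0 nM and those at 200 nM lay below both, with a log2 fold change of -0.08 ± 0.04 (edgeR adjusted p = 0.0522) that fell short of the threshold. Of the 16 fits that leave out 1 library, 13 called it, at -0.09 to -0.11. Smc4, the other core ATPase, changed by 0.50 ± 0.03 (edgeR adjusted p = 2.34e-18) at 200 nM. Ncapd2 and Ncapg, condensin subunits that regulate the core, changed by 0.27 (called) and 0.09 (not called, adjusted p = 0.0611) at 200 nM, and both turned negative with library size alone (-0.11 and -0.29).

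A rise followed by a fall was common among the members. A gene was said to peak at a dose where it exceeded both ends of the dose range, 0 and 200 nM, by the same test (the weaker p of the pair, adjusted over all genes). At 50 nM 5 members peaked (Cdk1, Plk1, Kif11, Smc2 and Ncapg), against 1.30% of all genes tested. At 75 nM 7 did, with Aurka and Racgap1 added, against 1.82%. At 100 nM 12 did, with Bub3, Nuf2, Kif20a, Prc1 and Top2a added, against 1.69%. At 150 nM 10 of these 12 did, against 0.595%. Plk1, Kif11, Smc2 and Ncapg peaked at all 4 of these doses. No member was lower than both ends at 50, 75, 100 or 150 nM, where 0.952%, 1.27%, 0.893% and 0.198% of all genes were. With library size alone 8, 11, 13 and 7 members peaked at these 4 doses. Peaks over all genes were not counted with that scaling, and the shares above, found with TMM, do not apply to these counts.

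Set directly against 200 nM, 75 nM had 19 members higher and 14 lower (all genes: 35.0% and 35.9%). With library size alone 29 were higher and 8 lower (4847 and 2422 of all 10080 genes). The 19 were higher under all 5 scalings, and among them 6 of the 7 cytokinesis genes (all but Ect2) and 4 of the 7 checkpoint genes (Bub1, Bub1b, Mad2l1 and Ttk). The 14 were 4 of the 5 kinetochore genes (all but Nuf2), the 3 cyclins, Ube2c, Nusap1, Tpx2, Hmmr, Mki67, Smc4 and Cdca8. Of these 14, only 8 were lower at 75 than at 200 nM under all 5 scalings (Ccnb2, Cenpa, Cenpf, Hmmr, Mki67, Nusap1, Tpx2 and Ube2c). With library size alone Ccnb1, Ndc80, Smc4 and Cdca8 changed sign, to 0.015, 0.029, 0.072 and 0.17. The call of Cdca8, -0.09, was lost without any one of the 4 libraries compared (adjusted p = 0.0728 to 0.126). Without the second library of 200 nM 15 members were higher and 12 lower. The calls of Anln (0.12, adjusted p = 0.104), Kif20b (0.20, adjusted p = 0.0792), Kif2c (0.17, adjusted p = 0.0518), Nuf2 (0.11, adjusted p = 0.164) and Ndc80 (-0.15, adjusted p = 0.0809) were then lost, as were those of Kif20b without the second library of 75 nM (0.21, adjusted p = 0.0644), of Nuf2 without the first of 75 nM (0.15, adjusted p = 0.0561) and of Prc1 without the first of 75 nM (0.10, adjusted p = 0.07) or of 200 nM (0.09, adjusted p = 0.0739).

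Across the 2 doses, 26 members were higher than untreated cells at both 75 and 200 nM, and Bub1b and Ect2 were lower at both. Cdk1, Bub1, Ttk and Aurkb were higher at 75 nM and lower at 200 nM with TMM. With library size alone none of these 4 was called at 75 nM (log2 fold changes of 0.055 for Cdk1, 0.0048 for Bub1, 0.087 for Ttk and -0.0047 for Aurkb), and 11 other members were higher and then lower (Incenp, Kif11, Kif20a, Kif22, Ncapd2, Ncapg, Nuf2, Plk1, Prc1, Racgap1 and Smc2). With TMM, another 7 were higher at 75 nM and not called at 200 nM (Plk1, Bub3, Kif11, Kif2c, Anln, Smc2 and Ncapg). These joint classes were counted for the members only. Without the share of all genes in each class, their sizes are descriptions of the members alone. Both comparisons share the 0 nM libraries, so their values are given side by side and not correlated. Ttk, the kinase Mps1 that starts the checkpoint, went from 0.21 ± 0.07 (edgeR adjusted p = 0.0136) to -0.32 ± 0.08 (edgeR adjusted p = 0.00025). Bub1 went from 0.12 ± 0.04 (edgeR adjusted p = 0.0158) to -0.23 ± 0.05 (edgeR adjusted p = 2.54e-05). The calls at 75 nM were lost for Ttk without the first library of 0 nM (0.14, adjusted p = 0.185) or of 75 nM (0.17, adjusted p = 0.112), for Bub1 without the second of 0 nM (0.10, adjusted p = 0.135) or either of 75 nM (0.11, adjusted p = 0.0985 and 0.13, adjusted p = 0.0635), and for Bub3 without the second of 0 nM (0.10, adjusted p = 0.0598).

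**Figure D4:**
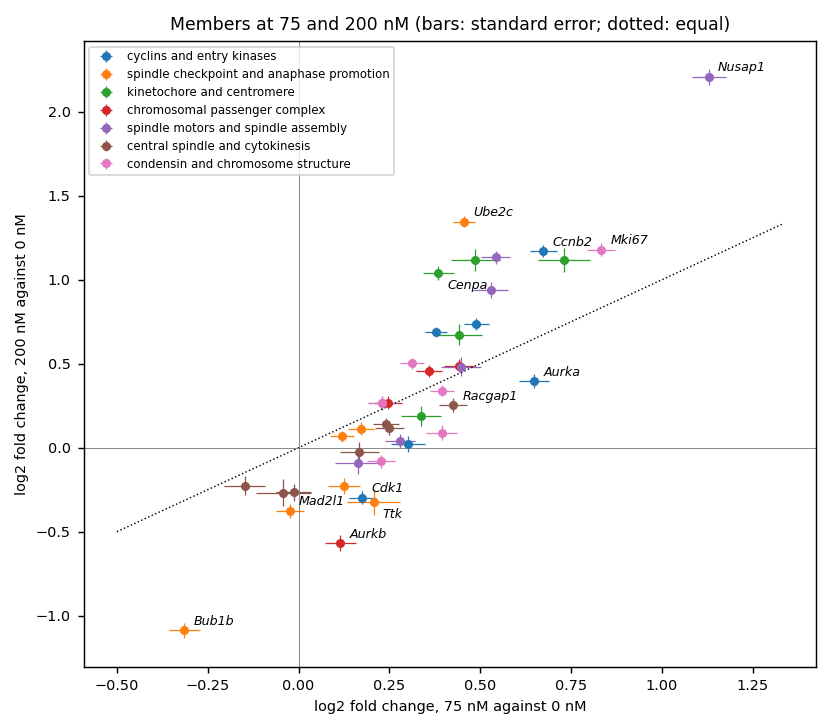
Log2 fold change against 0 nM at 75 nM (horizontal) and at 200 nM (vertical) for the 42 members, coloured by role, with bars for the standard error and a dotted line of equal change. Nusap1 and Ube2c lie above the line, Cdk1, Ttk and Aurkb lie below it with negative values at 200 nM, and Bub1b is lowest at -0.31 and -1.09.

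Ratios of counts within a library do not depend on how libraries are scaled, so they show the same parting of members directly. Nusap1 had 0.334 and 0.309 counts per Bub1b count in the 2 libraries at 0 nM, 0.884 and 0.866 at 75, then 2.96 and 3.37 at 200 nM. Ube2c per Bub1b went from 1.32 and 1.33 at 0 nM to 6.80 and 7.53 at 200 nM. Ccnb1 per Cdk1, the cyclin against its kinase, went from 1.51 and 1.54 to 1.94 and 1.85 at 75 nM and 3.02 and 3.22 at 200 nM. In all 3 ratios the libraries at 200 nM lay outside the range at 0 nM. Within the passenger complex, Birc5 per Aurkb went from 0.9 and 0.94 at 0 nM to 1.82 and 2.01 at 200 nM, and Incenp per Aurkb from 0.925 and 0.979 to 1.60 and 1.80. Within condensin, Smc4 per Smc2 gave ratios of 1.10 and 1.09 at 0 nM, 1.12 and 1.21 at 75, then 1.65 and 1.63 at 200 nM. Ndc80 per Nuf2, 2 partners in the same complex, moved least of the ratios given here, from 0.956 and 0.811 to 1.14 and 1.34. These ratios, of pairs chosen after the values were seen, are given as descriptions with no test.

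**Figure D5:**
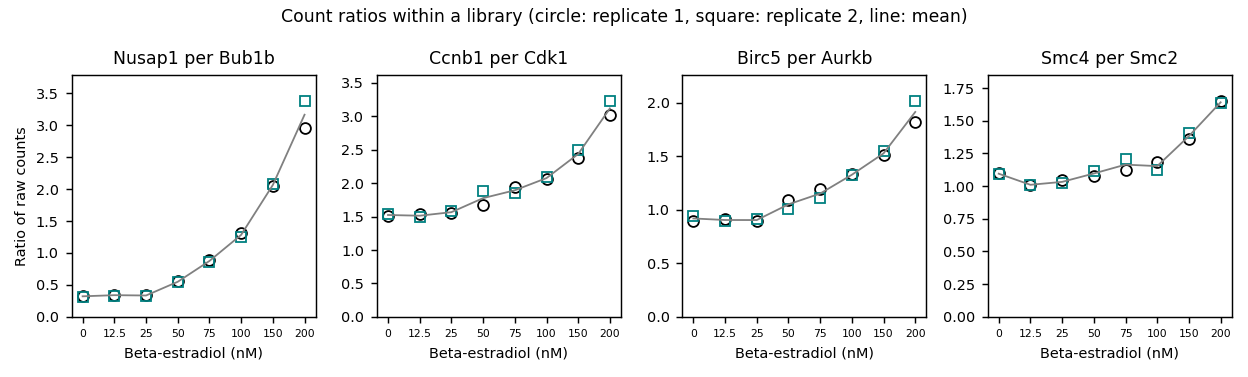
Ratio of raw counts of 2 members within each library (vertical axes starting at 0) against the dose of beta-estradiol in nM, with replicate 1 as a circle, replicate 2 as a square and their mean as a line. Nusap1 per Bub1b goes from 0.334 and 0.309 at 0 nM to 2.96 and 3.37 at 200 nM, and Smc4 per Smc2 from 1.10 and 1.09 to 1.65 and 1.63.

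Compared per length (RPKM, the CPM above divided by kilobases of annotated exon, mean of all 16 libraries, with GENCODE M21 gene models), the members spanned a wide range of levels. Ccnb2 was highest at 210.4 RPKM, followed by Ccnb1 at 204, Ube2c at 201, Cdca8 at 184 and Cdc20 at 178. Cenpf was lowest at 5.87, below Kif20b at 7.84 and Cenpe at 8.12. The exon lengths are those of all annotated exons joined, so a gene with rarely used exons is understated.

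Other genes of mitosis were counted in a larger list. Of 110 further mitosis genes in the table, 109 were tested, and 68 were higher and 10 lower at 75 nM (median log2 fold change 0.24, all genes: 29.0% and 26.9%). At 200 nM 57 were higher and 36 lower (median 0.21, all genes: 40.5% and 39.5%). Scaled by library size alone, 52 of them were higher and 21 lower at 75 nM (all genes: 21.3% and 37.8%). For 200 nM they were 37 higher and 57 lower (all genes: 28.0% and 53.5%). Foxm1 and Mybl2, the genes of the activators FOXM1 and B-Myb named because of that role, had log2 fold changes at 200 nM of 0.34 ± 0.10 (edgeR adjusted p = 0.0026), called, and -0.21 ± 0.11 (edgeR adjusted p = 0.0807), not called. Both values are with TMM scaling, and those with library size alone are not given here. That scaling moved the median of all genes to -0.36 at 200 nM, so the direction of Foxm1 may depend on the scaling. Cdc25b, the phosphatase that activates Cdk1, had the largest rise, from 14.4 ± 0.465 to 694 ± 16.8 CPM (SD, n = 2), which on the log2 scale is 5.59 ± 0.06 (edgeR adjusted p = 6.48e-52). Fzr1, the activator of the anaphase-promoting complex in late mitosis and the first gap phase, and the cytokinesis kinase gene Cit changed by 2.81 and 2.52. The largest falls were those of the septin gene Sept9, of the midbody gene Cep55 and of the cohesin regulator Pds5b, by -2.31, -1.86 and -1.05. Each of these 6 was called. Side by side, the 31 DNA replication genes had 12 called higher and 3 lower at 75 nM, against 3 higher and 27 lower for the top dose, beside the shares of all genes just given. Scaled by library size, 6 of them were higher and 12 lower at 75 nM, whereas for the top dose 1 was higher and 30 were lower. With TMM all but 1 of them, 30 of 31, were higher at 75 than at 200 nM, where the mitosis members had 19 of 42 higher and 14 lower.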

How the data were processed

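RNA was measured in 16 libraries (8 doses of beta-estradiol, 2 replicates each) made by Smart-seq2, a method that copies polyadenylated RNA, keeps no strand and uses no molecular identifiers, per the labels' protocols. Reads of genes that overlap on opposite strands are therefore mixed. The authors deposited whole-number counts per gene symbol, not normalized, in 1 table with 23410 rows. The tools were bcl2fastq and STAR and the genome build was mm10, per the submitters' processing notes. Their versions, the counter, its annotation and its treatment of multiply matching reads were not given in the sources used here.

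Testing was done with edgeR 4.0.16 under R 4.3.3. Low genes were dropped with filterByExpr, grouped by dose, and 10080 remained. Libraries were scaled by TMM, and a robust quasi-likelihood model with the dose as a factor was fitted to all 16 libraries, which gives all doses a common spread. Benjamini-Hochberg adjustment ran over all genes tested in each contrast, and a gene with an adjusted p under 0.05 was called. The standard error of a log2 fold change is its size over the root of its F statistic. The dose trend is the slope on log2(dose/12.5 + 1). The pipeline was tested on simulated data. Replicates were compared first, and no 2 libraries agreed within sampling noise (chi-square per degree of freedom 1.66 to 3.82). Alternatives were library size alone, size factors by relative log expression, the upper quartile, library size without Rn45s and globin genes, other filters on low counts, DESeq2 1.42.0, the replicate number as a block, only the doses compared, and leaving out each library. Promoters are those of RefSeq (GRCm38.p6) and gene positions those of GENCODE M21 (GRCm38). Kif20a is named without its sequence.

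The members and lists were chosen with earlier results of these data known. Values in every library are given, within each role, for the members with the highest and lowest log2 fold change at 200 nM and the highest CPM, and for Mki67, Ccnb1 and Bub3. Of the other mitosis genes, the 3 highest and 3 lowest changes at 200 nM are named among called genes of at least 10 CPM at 0 or 200 nM.

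One list of markers of other cell types is not reported here.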

Additional observations from a re-analysis of the deposited data

How the results depend on the processing

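The replicate numbers were not taken to pair samples in the main fit. Over 28 pairs of doses the correlation between same-numbered libraries of their deviations from the dose means ran from -0.058 to 0.096. These values show no strong shared effect of the replicate number, but cannot show that no samples were paired. With the replicate number as a block, 37 members were higher and 2 lower at 75 nM, 27 higher and 9 lower at 200 nM, 19 higher and 14 lower at 75 than at 200 nM, and 42 changed over all doses. The block moved no count of calls by over 1.5 times.

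Scaling by library size alone gave 4 lower members at 75 nM (2 with TMM), 14 higher and 24 lower at 200 nM (26 and 9 with TMM), and 29 higher and 8 lower at 75 than at 200 nM (19 and 14 with TMM). Library size without Rn45s and the globin genes gave 17 lower at 200 nM and 19 higher. Other fits kept each count within 1.5 times: size factors by relative log expression, the upper quartile, DESeq2 (32 and 2 at 75 nM, 26 and 9 at 200 nM, 16 and 14 for 75 against 200 nM), no filter on low counts, a filter at 10 CPM in 2 libraries, and only the doses compared (not run for all doses together). Leaving out each library in turn gave 33 to 37 higher and 1 to 2 lower at 75 nM, 24 to 26 higher and 9 to 10 lower at 200 nM, 15 to 19 higher and 12 to 14 lower at 75 than at 200 nM, and 42 over all doses. The lone lower member was Bub1b, without the second library of 0 nM or either of 75 nM.

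Single members changed sign as follows, in log2 fold change, and beyond the scaling itself the cause was not tested. With library size alone, Aurkb was -0.0047 at 75 nM, and at 200 nM against 0 nM Plk1 was -0.36, Bub3 -0.31, Cdc20 -0.27, Nuf2 -0.19, Incenp -0.11, Kif11 -0.34, Kif22 -0.11, Kif20a -0.26, Racgap1 -0.13, Prc1 -0.24, Ncapd2 -0.11, Ncapg -0.29 and Top2a -0.041. With the same scaling 75 against 200 nM gave Ccnb1 0.015, Ndc80 0.029, Incenp 0.24, Birc5 0.21, Cdca8 0.17, Kif4 0.23, Kif22 0.22, Smc4 0.072 and Ncapd2 0.22. Library size without Rn45s and globins gave at 200 nM Plk1 -0.17, Bub3 -0.12, Cdc20 -0.078, Nuf2 -0.0026, Kif11 -0.15, Kif20a -0.075, Prc1 -0.053 and Ncapg -0.10, and for 75 against 200 nM Incenp 0.12, Birc5 0.090, Cdca8 0.043, Kif4 0.10, Kif22 0.10 and Ncapd2 0.099. The upper quartile gave at 200 nM Plk1 -0.053, Bub3 -0.0085 and Kif11 -0.035. No filter on low counts gave Plk1 -0.0072 at 200 nM and Incenp 0.0011 for 75 against 200 nM. Leaving out 1 library gave ranges across 0 for Kif20b (-0.11 to 0.027) and Mad2l1 (-0.059 to 0.00070) at 75 nM, for Plk1 (-0.024 to 0.040), Kif11 (-0.0017 to 0.059) and Anln (-0.11 to 0.045) at 200 nM, and for Incenp (-0.033 to 0.0095), Birc5 (-0.080 to 0.0010) and Kif4 (-0.067 to 0.016) at 75 against 200 nM, none of which was called with all libraries.

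With 2 libraries a dose, several small changes were called or not depending on 1 library, as given beside each. Amplified reads without molecular identifiers are not independent molecules.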

Other observations

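The 42 members together took 0.902% of all counts at 0 nM, 0.911% at 12.5 nM, 0.894% at 25 nM, 1.00% at 50 nM, 1.04% at 75 nM, 1.07% at 100 nM, 1.05% at 150 nM and 0.943% at 200 nM (means of 2 libraries, of all counts in a library, before any scaling). The share was thus highest at 100 nM and at 200 nM lay above that at 0 nM, while the globin genes went from 0.151% to 5.85% of the counts. It is a sum and does not stand for most members. With library size alone 14 members were higher and 24 lower at 200 nM, with a median log2 fold change of -0.12. Ube2c alone went from 5818 and 5611 counts in the libraries of 0 nM to 9861 and 10601 in those of 200 nM.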
